A study of Mus musculus with 12 samples.

Results

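A pair of probe families on a mouse long non-coding RNA array was followed through the degeneration and regrowth of a crushed sciatic nerve. A family was formed by linking probes that share 25 or more consecutive bases on the same strand, and taking every probe reachable through such links. The fifth and the seventh largest families by this rule, called the larger and the smaller family here, held 230 of the 90752 probes of 60 bases on the array: 128 members with signal enough to be tested and 1 without in the larger, and 95 and 6 in the smaller. The linking rule used the probe sequences alone, but the families were chosen with earlier results of these data known. In each family most members were bright. Against day 0, 5, 25 and 33 members of the larger family and 9, 10 and 13 of the smaller were called changed at day 3, 7 and 14, which are smaller shares than the 44.4%, 44.4% and 48.4% of all tested probes. The members that fell most often, dim members of the larger family, also differed between the slides on which the arrays lay.

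RNA came from the segment of the right sciatic nerve below the crush in C57Bl6 mice aged about 2 months. The 4 groups were nerves taken at day 0, 3, 7 and 14 after the crush, with 3 arrays in each group and RNA of 6 mice pooled for each array. All 4 groups are labelled as crushed nerve, and day 0 serves as the control here. Crushing cuts the axons and leaves the sheath, so the sampled piece is the one that loses its axons and is later regrown. The arrays lay on 3 slides: slide 1 held replicates 1 and 2 of day 0 and of day 3, slide 2 held replicate 3 of day 0 and of day 3 with replicates 2 and 3 of day 7, and slide 3 held replicate 1 of day 7 with all of day 14. No slide held both day 0 and day 14. Array by array, 64.2% to 79.5% of spots exceeded background clearly, with 0 saturated spots. The files do not pair probes with gene names, so the labelled tissue was not checked against marker genes here. Each array's RNA was a mixture of cells, in which fewer cells of a type and less RNA per cell cannot be told apart.

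A probe of this kind is a short strand of DNA that captures labelled RNA of the complementary sequence. Probes that share a long run of bases can capture the same RNA molecule, and their signals are then not independent measurements. Large groups of overlapping probes arise on array designs where transcripts carry the same sequence many times, as interspersed repeats do, and the signal then adds up RNA from many places. The repeat class of the families and their places in the genome were not analysed here.

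The consensus of each family shows what its members have in common. It was formed by laying the members over one another at their shared runs and taking the most frequent base at each position covered by at least 10 members. Capitals mark the 25 bases that occur unbroken in the most members.
Consensus of the larger family: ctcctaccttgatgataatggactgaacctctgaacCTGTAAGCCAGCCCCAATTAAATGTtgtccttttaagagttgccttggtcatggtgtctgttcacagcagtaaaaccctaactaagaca
Consensus of the smaller family: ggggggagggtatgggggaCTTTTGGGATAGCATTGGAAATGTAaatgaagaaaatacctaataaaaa
The consensus of the larger family ran over 125 positions, of which 95 had the same base in at least 90% of the members covering them. That of the smaller family ran over 68 positions, of which 47 reached 90%. The capitalised run was carried whole by 28 members (21.7%) of the larger family and by 20 (19.8%) of the smaller, so that no single run of 25 bases was common to a family. Only 1223 of the 8256 possible pairs (14.8%) in the larger family and 643 of 5050 (12.7%) in the smaller family shared 25 bases themselves.

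Members departed from their consensus by a few bases in most cases and by long unmatched ends in some. The following members of the larger family are shown because the results turn on them. They are the member with the most links, the dimmest seen on all 12 arrays, the one with the largest rise after crush and the member with the largest fall. Each member was aligned to the consensus over its best-matching stretch, and capitals mark bases not matched in that alignment. Ends left out of the alignment are capitalised whole, even where a base there equals the consensus. All capitals are counted below as bases outside the consensus. Consensus bases that a member lacks are not marked.
MOUSELNCRNA_60574, most links: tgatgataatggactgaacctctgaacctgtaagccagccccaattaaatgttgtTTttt
MOUSELNCRNA_62198, dimmest: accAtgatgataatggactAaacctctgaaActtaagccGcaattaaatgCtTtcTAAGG
MOUSELNCRNA_29162, largest rise: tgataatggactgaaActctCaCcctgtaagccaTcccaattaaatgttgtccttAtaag
MOUSELNCRNA_38350, largest fall: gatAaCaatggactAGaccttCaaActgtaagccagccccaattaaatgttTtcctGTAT
MOUSELNCRNA_60574 shared 25 bases with 63 other members and had 2 bases outside the consensus. MOUSELNCRNA_62198 had 2 linked members and 11 bases outside it, MOUSELNCRNA_29162 had 1 link and 5 bases outside, and MOUSELNCRNA_38350 had 34 links and 11 bases outside.

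The corresponding members of the smaller family are shown for the same reason. The member with the most links is followed by the dimmest, then by the members with the largest rise at day 3 and at days 7 and 14, and by those with the largest fall at day 3, day 7 and day 14. Rises and falls were ranked among called members well above background on all 6 arrays compared.
MOUSELNCRNA_58787, most links: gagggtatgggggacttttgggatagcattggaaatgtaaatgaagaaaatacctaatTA
MOUSELNCRNA_90015, dimmest: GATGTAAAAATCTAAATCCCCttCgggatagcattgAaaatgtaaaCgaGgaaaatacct
MOUSELNCRNA_26214, rise at day 3: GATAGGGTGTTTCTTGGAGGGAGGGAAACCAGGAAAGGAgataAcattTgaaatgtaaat
MOUSELNCRNA_53496, rise at days 7 and 14: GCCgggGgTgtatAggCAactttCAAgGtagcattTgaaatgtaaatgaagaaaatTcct
MOUSELNCRNA_34340, fall at day 3: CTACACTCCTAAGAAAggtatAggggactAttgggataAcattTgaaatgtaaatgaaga
MOUSELNCRNA_59969, fall at day 7: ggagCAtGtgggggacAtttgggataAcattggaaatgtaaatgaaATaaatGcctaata
MOUSELNCRNA_52216, fall at day 14: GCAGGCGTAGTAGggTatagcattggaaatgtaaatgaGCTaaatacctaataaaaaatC
MOUSELNCRNA_58787 had 33 links and 2 bases outside the consensus. MOUSELNCRNA_26214 had 41 bases outside it and a single link, so that most of this probe lies outside the family's shared sequence. MOUSELNCRNA_90015 and MOUSELNCRNA_34340 also had 1 link each, with 25 and 20 bases outside.

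Short motifs described the families further. On the printed strand, 98 members of the larger family (76.0%) held ATTAAA, which 5.61% of all probes hold, and 72 (55.8%) held the longer AATTAAATG, found in 0.217% of all probes. ATTAAA and AATAAA are forms of the signal at which the ends of many transcripts are cut and polyadenylated. AATAAA occurred in 3 members (2.33%) of the larger family and in 30 (29.7%) of the smaller family, against 14.7% of all probes. The motifs were sought on both strands, and ATTAAA and AATTAAATG overlap each other. The reverse complement of ATTAAA occurred in 0 members of either family, and that of AATAAA in 1 member of the larger family. A match says only that the letters are in the probe. Members were linked by shared bases, so motifs within the shared sequence, here and below, are frequent in a family by construction. The shares of all probes include the members.

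The larger family was sorted into 2 classes by position. A total of 115 members lay over the first stretch of the consensus, and 14 started after position 66 of the 125 and read its far end. The median of the members' mean log2 signals was 14.14 in the first class, with a range of 5.95 to 15.69, and 10.15 in the second, with a range of 2.38 to 14.19. The smaller family was sorted by a variable stretch. A total of 18 members held GGTATAGC or GAGCTAAA, and of the others 29 held CATTGGAAATG, 36 held CATTTGAAATG and 18 held none of these. The median signal was 15.61 in the first of these classes, 14.18 with CATTGGAAATG, 11.39 with CATTTGAAATG and 13.58 in the remainder. Each class of the smaller family spanned several log2 units, and the ranges overlapped, from 10.82 to 16.39 in the first class and from 1.88 to 14.59 with CATTTGAAATG. On the printed strand CATTTGAAATG was held by 0.0771% of all probes, CATTGGAAATG by 0.0551%, GGTATAGC by 0.0650% and GAGCTAAA by 0.127%, and on the other strand by 0 members of the family.

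Both families were bright. Signals are given as the log2 of the processed intensity, scaled so that the 75th percentile of every array stood at 9.34. Over the 12 arrays the members of the larger family had a median log2 signal of 13.88, with quartiles at 12.3 and 14.75, and those of the smaller family had a median of 13.07, with quartiles at 10.68 and 14.64. The median over all probes was 6.41. The family medians lay above 96.3% and 94.4% of all probes. A mean log2 signal of 12 or more was reached by 78.3% of the members of the larger family and by 59 members (58.4%) of the smaller family, against 8495 probes (9.36%) of the whole array.

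Not every member was seen. Of the larger family, 127 members were well above background on all 12 arrays and 1 on none. Of the smaller family, 91 were seen on all arrays and 4 on none. A comparison required a probe to clear background on the 3 arrays of some day, and 128 and 95 members did so. The 6 members of the smaller family that did not pass were seen on at most 2 arrays and had means of 1.88 to 3.79.

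Brighter members tended to match more of the consensus. In the larger family the brightest was MOUSELNCRNA_15727, with a mean of 15.69 and 1 base outside the consensus, and in the smaller family it was MOUSELNCRNA_53766, with a mean of 16.45 and also 1 base outside. Their log2 signals on single arrays ran from 15.60 to 15.83 and from 16.23 to 16.76. Across the tested members, the signal correlated with the share of the 60 bases that match the consensus at Pearson's r = 0.72 and Spearman's rho = 0.63 in the larger family (128 members) and at r = 0.75 and rho = 0.71 in the smaller family (95 members). The share of matching bases among the aligned bases alone correlated with the signal at r = 0.66 and rho = 0.70 in the larger family. In the smaller family these values were only 0.24 and 0.30. GC content had medians of 41.7% and 36.7%. Its correlation with the signal was weak in the larger family (r = 0.11), and none was seen in the smaller family (r = -0.00085). These values describe overlapping probes read on the same arrays, which are not independent points.

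Members that shared more bases had closer signals. In the larger family the median difference in mean log2 signal was 1.93 between members with no shared run of 25 bases, 1.26 where 25 to 29 bases were shared, 0.59 at 30 to 39 and 0.17 at 40 or more. The same differences in the smaller family were 2.90, 1.95, 1.45 and 0.38. The deviations of each array from its day's mean followed the same order: the median correlation between 2 members over the 12 arrays was 0.23, 0.48, 0.92 and 0.94 in the larger family and 0.56, 0.69, 0.83 and 0.93 in the smaller family. Members sharing 40 bases thus gave nearly the same reading of each array.

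The array medians of the larger family lay close together on all days. The median log2 signal of its tested members was 13.98, 13.90 and 13.93 on the arrays of day 0, 13.90, 13.88 and 14.01 at day 3, 13.82, 13.92 and 13.86 at day 7, and 13.93, 13.89 and 13.84 at day 14. The arrays of all 4 days overlapped. The day means were 13.94 ± 0.04, 13.93 ± 0.07, 13.87 ± 0.05 and 13.89 ± 0.05 (SD, n = 3 each).

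The array medians of the smaller family were spread more widely within days. Its median was 13.50, 13.54 and 13.19 at day 0, 13.60, 13.53 and 12.93 at day 3, 12.98, 13.23 and 13.08 at day 7, and 13.30, 12.87 and 13.35 at day 14. The day means were 13.41 ± 0.19, 13.35 ± 0.37, 13.10 ± 0.12 and 13.18 ± 0.26 (SD, n = 3 each), again with overlap between all days. The pooled SD of the array median within days was 0.25 for this family and 0.05 for the larger family.

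Part of that spread was shared by the members. At day 14, replicate 2 was the lowest array of the smaller family: 6 of its 95 tested members lay above their own day mean there, and 90 did so in each of replicates 1 and 3. At day 7, 8 lay above it in replicate 1 and 89 in replicate 2. A single value per array accounted for 38.3% of the members' variance within days in the smaller family and for 10.2% in the larger family. The median SD of a member within days was 0.22 in the smaller family and 0.10 in the larger family, against 0.21 over all tested probes and 0.16 over those with a mean of 12 or more. The repeated spots of a member on one array differed by a median of 0.06 and 0.05 log2 units, and by 0.10 over all probes, so the wider spread of the smaller family lay between arrays.

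At day 3 after the crush, when axons have been cut and debris is being cleared, few members of the larger family differed from day 0. A member was called at an adjusted p below 0.05, from limma's moderated test with Benjamini-Hochberg adjustment over the 62803 probes tested. Of the larger family 1 member rose and 4 fell, or 3.91% of 128, where 44.4% of all tested probes were called, 21.7% rising and 22.7% falling. Among its members with a mean of 12 or more, 3 were called, against 50% of all tested probes that bright. The median log2 fold change was -0.03, against 0.03 for all tested probes. For 122 of the 128 members the 95% interval of the change lay within 2-fold in either direction, which held for 60.7% of all tested probes. The members' standard errors had a median of 0.10, and those of all tested probes 0.16. The count was 3 without replicate 2 of day 0 and 8 without replicate 3 of day 3.

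The family's exceptions were MOUSELNCRNA_29162 and MOUSELNCRNA_38350, printed above. The log2 signal of MOUSELNCRNA_29162 was 10.04, 9.97 and 9.58 on the day 0 arrays, 11.71, 11.74 and 11.51 at day 3, 11.32, 11.46 and 11.67 at day 7, and 11.17, 11.13 and 11.01 at day 14. Every later array lay above every day 0 array. The rise was 1.79 at day 3 (SE 0.14, limma adjusted p = 2.15e-06), or 3.46-fold, 1.62 at day 7 (SE 0.14, limma adjusted p = 6.02e-06) and 1.24 at day 14 (SE 0.14, limma adjusted p = 7.47e-05). Within slide 1 the day 3 rise was 1.72, and within slide 2 it was 1.93.

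MOUSELNCRNA_38350 ran the other way. It stood at 13.67, 13.51 and 13.86 at day 0, 11.37, 11.28 and 11.12 at day 3, 11.25, 11.22 and 11.18 at day 7, and 12.38, 12.52 and 12.06 at day 14. No array of a later day reached the day 0 range, and the day 14 arrays lay between those of day 0 and day 7. The change was -2.42 at day 3 (SE 0.14, limma adjusted p = 1.98e-07), a 5.37-fold fall, then -2.46 at day 7 and -1.36 at day 14. From day 7 to day 14 it rose by 1.102 (SE 0.14, limma adjusted p = 0.000618). The day 3 change was -2.27 within slide 1 and -2.74 within slide 2. Both members kept their calls against day 0 with slide as a block and without any one array.

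The remaining day 3 calls of the larger family were 3 falls of 0.57, 0.25 and 0.24 log2 units. The member with the most links, MOUSELNCRNA_60574, stood at 15.57, 15.44 and 15.57 at day 0, 15.45, 15.41 and 15.64 at day 3, 15.49, 15.50 and 15.49 at day 7, and 15.57, 15.55 and 15.48 at day 14. Its groups overlapped throughout, and its change was -0.03 at day 3 (SE 0.09, limma adjusted p = 0.851), -0.04 at day 7 and 0.00 at day 14.

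At day 7, when debris removal is under way and axons grow back, 1 member of the larger family rose and 24 fell. That is 19.5% called, against 44.4% of all tested probes, of which 20.4% rose and 24.0% fell. The median change was -0.08, against -0.11 over all tested probes. At day 14, 1 member rose and 32 fell, or 25.8%, against 48.4% of all tested probes, with 19.4% rising and 29% falling. The median change was -0.05, against -0.13. A total of 20 members fell at both days, and 1 of them, MOUSELNCRNA_38350, also fell at day 3. The day 7 count was 10 without replicate 1 or without replicate 2 of day 0, 42 without replicate 3 of day 0, and 11, 14 and 13 without replicates 1, 2 and 3 of day 7. The day 14 count was 10 and 12 without replicates 1 and 2 of day 0, and 20, 19 and 17 without replicates 1, 2 and 3 of day 14.

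Dim members made up a large share of these falls. Of the 27 tested members with a mean under 12, 12 fell at day 7 and 19 at day 14, and their median changes were -0.65 and -0.76. These falls include a member above background only at day 0 and day 3, so its falls support nothing further. Testing only probes above background on all 12 arrays left 127 members, of which 1 rose and 27 fell at day 7. At day 14, 1 of the 127 rose and 31 fell. Of the brighter members, 12 fell at day 7 and 13 at day 14, with median changes of -0.04 and -0.02. Among all tested probes under 12, 24.0% fell at day 7 and 29.8% at day 14. Among those at 12 or more, 48.2% were called in either direction at day 7 and 41.8% at day 14. Across the family's 128 members the size of the change was correlated with the mean signal at r = -0.73 for day 7 and r = -0.86 for day 14, values that share the same arrays.

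The dim members also separated by slide. Their median log2 signal was 10.04 and 9.97 on the slide 1 arrays of day 0 and 9.94 and 9.94 on those of day 3. On slide 2 it was 8.94 at day 0, 9.04 at day 3, and 8.86 and 8.79 at day 7. On slide 3 it was 8.73 at day 7, and 8.82, 8.78 and 8.77 at day 14. The day 0 and day 3 arrays of slide 2 thus lay nearer to day 7 and day 14 than to the other arrays of their own days, and no slide 1 array belonged to day 7 or day 14. The brighter members' median stood between 14.19 and 14.38 on all 12 arrays.

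With slide as a fixed block, the counts of the larger family changed. At day 3, 7 members rose and 13 fell, where 55.9% of all tested probes were called. The block left 2 rises and 10 falls at day 7, against 37.5%, and the 10 falls were all among the 24 called without the block. At day 14, 1 rose and 2 fell, against 16.5%, and both falls were among the 32. The dim members' median change was then -0.13 at day 7 and -0.12 at day 14. The block links day 14 to day 0 through a single day 7 array on slide 3, and without that array day 14 and slide 3 cannot be told apart.

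Few members of the larger family were called within single slides. On slide 1, 5 members rose and 5 fell at day 3, where 47.4% of all tested probes were called. On slide 2, 2 rose and 1 fell at day 3, against 26.1%, and 1 rose and 1 fell at day 7, against 18.8%. On slide 2 only day 7 had more than 1 array, and its spread was assumed for the lone arrays of day 0 and day 3.

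MOUSELNCRNA_62198, the dimmest member seen on all arrays, showed the same order of slides. Its signal was 6.79, 6.77 and 5.58 at day 0, 6.63, 6.81 and 5.70 at day 3, 5.28, 5.35 and 5.58 at day 7, and 5.60, 5.69 and 5.58 at day 14. Replicate 3 of day 0 and of day 3, on slide 2, lay with the later arrays. The change at day 7 was -0.98 (SE 0.34, limma adjusted p = 0.0368). The slide block gave -0.18 (SE 0.12, limma adjusted p = 0.288). Leaving out replicate 1 of day 0 gave an adjusted p of 0.137 (limma), and the call was also lost without replicate 2 of day 0 and without any one array of day 7 or day 14.

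Slides could be compared directly for both families, through the slide terms of that fit. Between slide 2 and slide 1, 22 members of the larger family were higher and 34 lower, against 37.6% of all tested probes, of which 16.8% were higher and 20.8% lower. Of its dim members 21 were lower and 0 higher, with a median difference of -0.68. Of its bright members 22 were higher and 13 lower, with a median of 0.10. Of the smaller family, 1 member was higher and 35 were lower, and the median difference was -0.27, against 0.02 for all tested probes. Its class with GGTATAGC or GAGCTAAA had a median of 0.09, and its other classes had medians between -0.36 and -0.26. Between slide 3 and slide 2, 0 members of either family were called by limma, against 0.124% of all tested probes. At an unadjusted limma p below 0.05 there were 10 and 8 members.

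From day 3 to day 7, 1 member of the larger family rose and 16 fell (13.3%), against 34.3% of all tested probes, with 15.7% rising and 18.6% falling. Of the 16 falls, 15 were of members with a mean under 12, among them the member above background only at day 0 and day 3. The median change of the dim members was -0.66, or -0.17 with slide as a block. Under the slide block 1 rose and 1 fell, against 25.8%, and within slide 2 the family's median change was -0.12. Among the bright members 1 was called, against 31.0% of all tested probes that bright. The count fell to 2 without replicate 1 or replicate 2 of day 3, to 3 without replicate 1 of day 7 and to 4 without its replicate 3, was 10 without its replicate 2, 11 without any one array of day 14, 31 without replicate 3 of day 0 and 33 without replicate 3 of day 3.

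From day 7 to day 14, 2 members of the larger family rose and 0 fell (1.56%), against 9.96% of all tested probes, with 5.61% rising and 4.35% falling. Of its bright members 1 was called, against 8.83%. The risers were MOUSELNCRNA_38350, described above, and a member that rose by 0.41. Under the slide block 2 rose and 1 fell, against 5.54%, and within slide 3 limma made 0 calls, with 5 at an unadjusted p below 0.05, against 1.31%. Slide 3 held 1 array of day 7, whose spread was assumed to be that of day 14. The count was 1 without replicate 1 of day 7 and without replicate 1 or 2 of day 14.

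In the smaller family, 3 members rose and 6 fell at day 3, or 9.47% of 95, against the same 44.4% of all tested probes. Its median change was -0.05. For 86 members the 95% interval lay within 2-fold. Of its 59 bright members 1 fell and 0 rose, against 50% of all tested probes that bright, and of its 36 dim members 3 rose and 5 fell. The slide block gave 5 rises and 7 falls, against 55.9%. On slide 1 alone 7 rose and 6 fell, against 47.4%, and on slide 2 alone 1 rose and 4 fell, against 26.1%.

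Of the 6 falls, 3 were of members with means under 5 that did not stay above background on all 6 arrays, with fitted changes of -1.31, -1.96 and -2.10, which are no bounds. They were tested because they cleared background at day 0, so their falls support nothing further. The rise and the fall described next were the largest among members above background on all 6. MOUSELNCRNA_26214 stood at 8.24, 8.40 and 8.24 at day 0, 9.09, 9.46 and 9.29 at day 3, 9.61, 9.39 and 9.28 at day 7, and 9.32, 9.12 and 9.36 at day 14. All later arrays lay above those of day 0. The rise was 0.99 at day 3 (SE 0.13, limma adjusted p = 9.4e-05), or 1.99-fold, 1.14 at day 7 and 0.98 at day 14. Under the slide block the rise was 1.07 at day 7 and 0.73 at day 14, and the day 14 call was lost (SE 0.22, limma adjusted p = 0.0578).

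MOUSELNCRNA_34340 fell early and returned. Its signal was 9.31, 9.60 and 9.72 at day 0, 8.36, 8.47 and 8.01 at day 3, 9.46, 9.35 and 9.26 at day 7, and 9.69, 9.80 and 9.82 at day 14. The day 3 arrays lay below all others, and the arrays of day 7 and day 14 overlapped those of day 0. The change was -1.27 at day 3 (SE 0.14, limma adjusted p = 3.21e-05), -0.19 at day 7 (SE 0.14, limma adjusted p = 0.289) and 0.22 at day 14 (SE 0.14, limma adjusted p = 0.210), and from day 3 to day 7 it rose by 1.08 (SE 0.14, limma adjusted p = 0.000566). The day 3 change was -1.04 within slide 1 and -1.72 within slide 2.

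At day 7, 4 members of the smaller family rose and 6 fell (10.5%), against 44.4% of all tested probes, with 20.4% rising and 24.0% falling. The median change was -0.03, against -0.11. At day 14, 7 rose and 6 fell (13.7%), against 48.4%, with 19.4% rising and 29% falling, and the median was -0.03, against -0.13. The day 3, day 7 and day 14 comparisons share the day 0 arrays. Some of the falls were of members that were tested only because they cleared background where they were high. Among the 91 members above background on all 12 arrays, 3 rose and 3 fell at day 3, 4 rose and 3 fell at day 7, and 7 rose and 3 fell at day 14. Of the bright members 1 fell at day 7 and 3 rose at day 14, against 48.2% and 41.8% of all tested probes that bright called in either direction. The day 7 count was 20 without replicate 3 of day 0. The day 14 count was 7 and 5 without replicates 1 and 2 of day 0, and 7 and 6 without replicates 1 and 3 of day 14.

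MOUSELNCRNA_53496 rose most at both days. It stood at 8.37, 8.58 and 8.60 at day 0, 9.08, 9.35 and 9.80 at day 3, 10.46, 10.45 and 9.73 at day 7, and 10.37, 10.02 and 10.47 at day 14. All later arrays lay above day 0, and day 3 and day 7 overlapped. The rise was 0.89 at day 3 (SE 0.23, limma adjusted p = 0.00839), 1.70 at day 7 (SE 0.23, limma adjusted p = 0.000166) and 1.77 at day 14 (SE 0.23, limma adjusted p = 0.000188). Blocking on slide gave a rise of 1.34 at day 7 (SE 0.27, limma adjusted p = 0.00503) and 1.16 for day 14 (SE 0.40, limma adjusted p = 0.0847), the latter not called. Within slide 2 the day 7 rise was 1.49.

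The largest falls at day 7 and day 14 in this family had the same order of slides. MOUSELNCRNA_59969 stood at 8.63, 8.48 and 7.80 at day 0, 8.49, 8.41 and 7.61 at day 3, 7.38, 7.74 and 7.52 at day 7, and 7.62, 7.23 and 7.65 at day 14. MOUSELNCRNA_52216 stood at 12.21, 12.20 and 10.59 at day 0, 12.19, 12.03 and 10.32 at day 3, 10.11, 10.65 and 10.71 at day 7, and 10.13, 9.86 and 10.39 at day 14. In both, replicate 3 of day 0 and of day 3, on slide 2, lay with or near the later arrays.

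For MOUSELNCRNA_59969 the day 7 change of -0.75 (SE 0.27, limma adjusted p = 0.0397) became -0.14 with slide as a block (SE 0.16, limma adjusted p = 0.540). For MOUSELNCRNA_52216 the day 14 change of -1.54 (SE 0.52, limma adjusted p = 0.0327) became 0.18 (SE 0.25, limma adjusted p = 0.690). Neither blocked change was called. Leaving out replicate 1 of day 0 raised these adjusted p-values to 0.146 and 0.118. The first call was also lost without replicate 2 of day 0, any one array of day 7, or replicate 1 or 3 of day 14, and the second without replicate 2 of day 0 or any one array of day 14.

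Under the slide block the smaller family had 11 rises and 2 falls at day 7, where 37.5% of all tested probes were called, and 3 rises and 0 falls at day 14, against 16.5%. The median change was then 0.17 and 0.30, against -0.01 and -0.03 over all tested probes. None of the 13 members called at day 14 without the block was called with it in the same direction. Within slide 2, 5 members rose and 2 fell at day 7, against 18.8%.

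From day 3 to day 7, 3 members of the smaller family rose and 0 fell (3.16%), against 34.3% of all tested probes. From day 7 to day 14 limma called 0 members, against 9.96%, and 4 had an unadjusted limma p below 0.05. The 3 risers included MOUSELNCRNA_34340 and MOUSELNCRNA_53496. The call of MOUSELNCRNA_53496 (limma adjusted p = 0.0234) was lost without replicate 1 or 2 of day 3 or of day 7, with limma adjusted p-values up to 0.0907, and under the slide block it was not called (limma adjusted p = 0.272). Blocking on slide, 4 members rose from day 3 to day 7, against 25.8%. With that block limma called 0 from day 7 to day 14, against 5.54%, and 4 had an unadjusted limma p below 0.05. Within slide 2, 3 rose from day 3 to day 7, against 7.82%. The first count was 6 without replicate 3 of day 0 and 16, of which 11 fell, without replicate 3 of day 3, and the second was then 2.

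MOUSELNCRNA_90015, the dimmest member of the smaller family seen on all arrays, was lower on every later day. It stood at 6.44, 6.61 and 6.47 at day 0, 6.03, 6.04 and 5.80 at day 3, 5.74, 5.87 and 6.08 at day 7, and 5.60, 6.18 and 6.04 at day 14, with no overlap between day 0 and the later days. The change was -0.56 at day 3 (SE 0.16, limma adjusted p = 0.0130), -0.61 at day 7 and -0.57 at day 14. Blocking on slide kept the day 3 call (limma adjusted p = 0.0109) and not those at day 7 (limma adjusted p = 0.113) and day 14 (limma adjusted p = 0.635). The member with the most links, MOUSELNCRNA_58787, stood between 16.16 and 16.56 on all 12 arrays, and its changes were -0.02 at day 3, 0.06 at day 7 and 0.05 at day 14 (SE 0.12 each), with limma adjusted p-values of 0.932, 0.702 and 0.760.

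The scaling turned the sign of some of the families' median changes. Under quantile normalization, which gives every array the same distribution of signals, the median change of the larger family was -0.16 at day 3, -0.02 at day 7 and 0.06 at day 14, and that of the smaller family was -0.16, 0.01 and 0.08. The larger family then had 1 rise and 23 falls at day 3, 1 and 13 at day 7 and 3 and 19 at day 14. The smaller family had 3 rises and 12 falls, 6 and 5, and 18 and 3. Of all tested probes 46.0%, 45.4% and 48.2% were called. The signs of the median at day 14 for both families and at day 7 for the smaller family were thus turned. From day 3 to day 7 the direction of the larger family turned too: 30 members rose and 12 fell, against 35.4% of all tested probes, with a median of 0.15. Of the smaller family 23 rose and 0 fell, also with a median of 0.15. From day 7 to day 14, 2 and 0 members were called, against 9.45%. Over all tested probes the scaling moved the median change from -0.11 to -0.01 at day 7 and from -0.13 to 0.01 at day 14. In the other comparisons of either family the sign of the median was kept. The changes of MOUSELNCRNA_29162 and MOUSELNCRNA_38350 were 1.74 and -2.44 at day 3 under quantile normalization.

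A few probes held sequence of the opposite strand. Whether they captured RNA of that strand was not tested. A total of 7 probes held the reverse complement of 25 or more bases of members of the larger family, and 14 did so for the smaller family. All 21 were tested and lay outside both families. They had mean log2 signals of 8.60 to 14.22 and of 7.54 to 14.87. In the smaller family's set, probes opposite to only 1 member had means of 12.7 to 14.87. Those opposite to 7 to 27 members had means of 7.54 to 10.9. The probe that covers the most members of each family is shown. Capitals are used as above, here against the reverse complement of the consensus.
MOUSELNCRNA_30926, opposite to 52 members of the larger family: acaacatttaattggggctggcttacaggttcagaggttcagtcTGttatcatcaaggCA
MOUSELNCRNA_51537, opposite to 27 members of the smaller family: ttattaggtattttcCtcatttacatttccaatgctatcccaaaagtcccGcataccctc
MOUSELNCRNA_30926 stood at 13.26, 13.21 and 13.12 at day 0, 13.37, 13.41 and 13.68 at day 3, 13.40, 13.48 and 13.12 at day 7, and 13.31, 13.09 and 13.35 at day 14. Its day 3 arrays lay above those of day 0, with a difference of 0.29 that was not called (SE 0.13, limma adjusted p = 0.0926). MOUSELNCRNA_51537 stood at 11.04, 10.90 and 10.64 at day 0, 10.89, 10.98 and 11.16 at day 3, 10.62, 10.67 and 10.31 at day 7, and 10.45, 10.59 and 10.30 at day 14. Its day 14 arrays lay below those of day 0, with a change of -0.42 (SE 0.14, limma adjusted p = 0.0338), whose adjusted p became 0.262 (limma) under the slide block. The call was lost without replicate 1 or 2 of day 0 and without replicate 1 or 3 of day 14. At day 3 limma called 0 of the 7 opposite-strand probes of the larger family, with 1 at an unadjusted p below 0.05, and 1 fell at day 7, 4 at day 14 and 3 from day 3 to day 7. Of the 14 probes opposite the smaller family, 0 were called at day 3 by limma, also 0 at an unadjusted p below 0.05, and 2 fell at day 7, 3 at day 14 and 3 from day 3 to day 7. In the smaller family's set each of these falls was of a probe opposite to 11 or more members. In the larger family's set they were of probes opposite to 2 to 6 members. Of all tested probes 24.0% fell at day 7, 29% at day 14 and 18.6% from day 3 to day 7. Under the slide block 1 of the 7 was called at day 7 and 0 of the 14, where 37.5% of all tested probes were called, and none of either set at day 14, against 16.5%.

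Runs of bases of some members also lay in the promoters of annotated genes. In RefSeq promoters of the build GRCm38.p6, 74 of 32851 held 25 or more bases of a member of the larger family on the gene's strand and 18 on the other strand. For the smaller family these were 39 and 32. Of 1005 RefSeq microRNA hairpins, 0 held such a run of either family. Such a run could come from any part of a member, including bases outside the consensus. No share for other probes is set beside these counts. Whether the probes read RNA of those genes was not analysed here.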

How the data were processed

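RNA was hybridised to 12 one-colour Agilent arrays. The deposited scanner files hold the processed signal, a background-subtracted intensity, made with Feature Extraction 10.7.1.1 per the file headers. A deposited table of log2 values, whose making the sources used here do not give, was used as an alternative. It correlated with the scanner signals at 0.993 to 1.00 per array and had a median of 6.42 in every column. It was thus on the same scale and not centred by probe. Its counts of called members equalled those under quantile normalization in every comparison of both families. It is therefore no check separate from that setting.

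Control and outlier spots were dropped, after which 25 probe values were missing. Spots of a probe were averaged as log2 intensity, and each array was scaled at its 75th percentile. limma 3.58.1 in R 4.3.3 was fitted with 1 mean per day over all 12 arrays (8 residual degrees of freedom) to the 62803 probes that cleared background on the 3 arrays of some day, with Benjamini-Hochberg adjustment over them. The tests measure the spread between these pools. The number of arrays limits the precision. Families, consensus sequences and motifs were computed in Python 3.11.15 from the probe sequences, with Biopython 1.88. The fit was checked on simulated data for day 3 against day 0 only. The simulated noise was independent between arrays and held no slide effect, so the check does not cover slide differences.

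Replicate numbers pair no samples in the labels. Same-numbered arrays of day 0 and day 3 deviated together (r = 0.325, 0.449 and 0.590), where the numbers coincide with the slides, but over the 18 same-numbered pairs of all days r ran from -0.297 to 0.590 and exceeded 0.1 in 5. Slide was therefore the block of interest.

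The members and lists were chosen with earlier results of these data known. Named probes were the member with the most links, the brightest and dimmest member above background on all arrays, and the largest called rise and fall against day 0 at each day. Alternatives were other scalings, background correction, filters, slide and replicate blocks, leaving out arrays, and other link lengths.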

Additional observations from a re-analysis of the deposited data

How the results depend on the processing

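Counts of called members moved with several choices, and the cause was not tested unless fewer members or arrays explain it. In the larger family, counts at day 3 (5), day 7 (25), day 14 (33), day 7 against day 3 (17) and day 14 against day 7 (2) became 24, 14, 22, 42 and 2 under quantile normalization and in the authors' log2 values. Their medians were -0.16, -0.017, 0.058 and 0.15 in the first 4. They became 20, 12, 3, 2 and 3 with slide as a fixed block and 13, 12, 8, 5 and 2 with it as a random block. With no filter on dim probes the day 3, day 7 and day 7 against day 3 counts were 3, 16 and 8, and with only the arrays compared the first 2 were 3 and 12. Scaling over probes above background on all arrays gave 9 for day 7 against day 3. Within slide 1 the day 3 count was 10. Within slide 2 it was 3 with a median of 0.064, at day 7 it was 2, and for day 7 against day 3 it was 0 with a median of -0.12. Within slide 3 day 14 against day 7 gave 0. At an adjusted p below 0.01 the counts were 3, 8, 8, 1 and 1. The shares of all tested probes called at 0.01, with the random block or with an array left out are not given here.

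In the smaller family, counts of 9, 10, 13, 3 and 0 became 15, 11, 21, 23 and 0 under quantile normalization and in the authors' values. At day 14 they were 3 with slide as a fixed block (median 0.30), 3 with it as a random block and 5 at an adjusted p below 0.01. The day 3 count was 5 within slide 2, and day 7 against day 3 was 5 when scaled over probes above background on all arrays. Day 14 against day 7 was 2 with only the arrays compared, and 1 with slide as a random block.

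Linking at 20 bases gave families of 215 and 1693 probes, at 30 bases 70 and 44, and at 40 bases 19 and 12. In the same order of comparisons the larger family then had 14, 59, 82, 39 and 4 calls at 20 bases (medians -0.22, -0.19 and -0.19 in the second to the fourth), 1, 5, 5, 2 and 1 at 30 (medians -0.020 at day 7 and 0.011 at day 14), and 0 in all 5 at 40 (medians 0.0033, 0.045 and 0.072 in the second to the fourth). The smaller family had 151, 462, 489, 333 and 16 at 20, 0, 1, 3, 1 and 0 at 30, and 0, 0, 1, 0 and 0 at 40. These counts are of families of different sizes. Of all tested probes 44.4%, 44.4%, 48.4%, 34.3% and 9.96% were called in the same comparisons.

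Leaving out 1 array at a time gave, for the larger family, 3 to 8, 10 to 42, 10 to 43, 2 to 33 and 1 to 2 calls, with medians of -0.073 to -0.0031, -0.09 to -0.05, -0.07 to -0.03, -0.07 to -0.01 and -0.01 to 0.03. For the smaller family it gave 7 to 11, 8 to 20, 5 to 19, 2 to 16 and 0 to 2 calls, with medians of -0.10 to 0.04, -0.11 to 0.06, -0.10 to 0.11, -0.13 to 0.06 and -0.07 to 0.13.

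With the replicate number as a block, which pairs no samples by the labels, the counts were 4, 27, 34, 23 and 2 in the larger family and 9, 10, 12, 3 and 1 in the smaller family. The bright and dim splits and the slide differences were chosen after seeing the data. Members near background limit what small changes can be read.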
